A study of Mus musculus with 2 samples.

Results

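The expression of 10 immune checkpoint genes was followed through dFLEx CDS mouse sarcomas by single-nucleus RNA-seq: Cd274, Pdcd1lg2, Cd276, Cd47, Sirpa, Cd200, Cd200r1, Lgals9, Havcr2 and Pvr. They were chosen by symbol, and all 10 were present among the 19059 features of the count matrices. In dFLEx CDS mice the CIC::DUX4 fusion, the driver of CIC-rearranged sarcoma, is placed at Rosa26 and is switched on only where Cre and FLP recombinase are both present, here in hind limb muscle electroporated with a plasmid for each enzyme (pCAG-Cre, pCAG-FLPE). The host therefore keeps its own immune system, and each tumor arose on its own in a treated muscle. The untreated group comprised 4 tumors with the genotype dFLEx CDS +/- and no treatment by the labels. The Minnelide group comprised 4 tumors of dFLEx CDS mice given 0.42 mg/kg Minnelide, a water-soluble prodrug of the transcription inhibitor triptolide, for 21 days. Injections were daily and intraperitoneal, by the methods of the study. The labels give no age for either group and no separate genotype for the treated mice.

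Immune checkpoints are pairs of surface molecules through which tumor or stromal cells dampen T cells and phagocytes. Cd274 encodes PD-L1 and Pdcd1lg2 encodes PD-L2, the ligands of the T cell receptor PD-1, and Cd274 transcription is known to follow interferon gamma, in part through IRF1. Cd276 encodes B7-H3, a B7-family ligand found on many solid tumors and on tumor vessels. Cd47 is the "don't eat me" signal that is read by Sirpa on macrophages. Cd200, a membrane glycoprotein of endothelial, neural and lymphoid cells, is read by the inhibitory receptor Cd200r1 on myeloid cells. Lgals9 encodes galectin-9, described as a ligand of Havcr2 (TIM-3), an inhibitory receptor of T cells, macrophages and dendritic cells, and Pvr encodes CD155, the ligand shared by Tigit, Cd96 and Cd226.

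Cd274 and Pdcd1lg2 are neighbors on mouse chromosome 19 (GRCm39, GENCODE M39 annotation). Cd274 lies at chr19:29344529-29365495 and Pdcd1lg2 at chr19:29388319-29448882, both on the plus strand, with 22824 bases between them. The 300 bases before the start of each canonical transcript are shown because Cd274 is a known interferon target and because the results below turn on it and on its neighbor's weak signal. Capitals mark a match to an interferon regulatory factor motif, which is GAAA, any 2 bases and GAAA on either strand.

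Cd274, chr19:29344229-29344528, plus strand: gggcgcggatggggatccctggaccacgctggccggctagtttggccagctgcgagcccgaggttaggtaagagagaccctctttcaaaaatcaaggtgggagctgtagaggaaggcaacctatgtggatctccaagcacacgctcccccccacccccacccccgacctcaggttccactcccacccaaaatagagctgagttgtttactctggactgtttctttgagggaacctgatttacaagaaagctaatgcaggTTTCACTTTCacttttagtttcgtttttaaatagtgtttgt

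Pdcd1lg2, chr19:29388019-29388318, plus strand: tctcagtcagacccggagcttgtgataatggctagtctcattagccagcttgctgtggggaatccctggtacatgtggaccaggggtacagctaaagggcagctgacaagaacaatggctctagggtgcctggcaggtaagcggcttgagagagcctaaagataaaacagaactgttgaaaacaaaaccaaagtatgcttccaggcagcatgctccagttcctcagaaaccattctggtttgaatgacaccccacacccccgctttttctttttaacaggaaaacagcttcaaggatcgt

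Of the 10 promoters, that of Cd274 alone held the motif, 41 bases before the start. The same motif was present in 772 of 18940 promoters of this length (4.08%). A pair of CIC motifs (TGAATGAA, in 1.51%, and TCAATGAA, in 0.707%, each on either strand) was found in none of the 10. A match is a description of letters in this window only.

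The other members are scattered over the genome. Cd200r1 (chr16:44586096-44615343, plus strand) lies 587127 bases from its ligand Cd200 (chr16:45202470-45229594, minus strand), and Cd47 is further along the same chromosome (chr16:49620896-49735373, plus strand). Sirpa is at chr2:129434039-129474148 (plus), Havcr2 at chr11:46345673-46374149 (plus), Lgals9 at chr11:78853800-78875798 (minus), Cd276 at chr9:58431412-58463665 (minus) and Pvr at chr7:19637503-19655085 (minus). Cd274 overlaps Plgrkt on the opposite strand. The methods of the study name Cell Ranger's default settings, under which a read is assigned to a gene by strand. Sirpa and Cd200r1 have close paralogs among the features, with which reads could be shared.

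The 8 matrices, 1 per tumor, held 72338 nuclei and between 18487409 and 73211599 unique molecular identifiers (UMIs) each, of which 59907 nuclei passed quality and doublet filters (30789 untreated, 29118 Minnelide). Untreated tumor 4 was shallow, with a median of 883 UMIs per nucleus against 2329 to 4031 in the others. Same-numbered tumors of the 2 groups shared 49 to 132 cell barcodes and other pairs shared none. No label names a run, and if the groups were run separately, run and treatment cannot be told apart. Nuclei were assigned to classes by clusters and marker genes: 34790 tumor-like (58.1%), 8511 myocyte-like, 6778 fibroblast-like, 3178 endothelial-like, 1442 macrophage-like (2.41%), 1001 smooth muscle-like, 769 osteoclast-like and 63 T or NK-like nuclei, with 3375 left unnamed (5.63%). Of the unnamed nuclei, 1503 formed 1 cluster that was almost wholly (99.9%) from untreated tumor 1. It carried 7 of 8 CIC::DUX4 target genes used as tumor markers, but Bank1, a B cell gene, led it. Endothelial markers were raised in it too, and its median depth was 11676 UMIs. They were also raised in a tumor-like cluster of 2082 nuclei, 94.4% from untreated tumor 1. The same held for a tumor-like cluster of 141 nuclei, 86.5% from untreated tumor 3. The part of this in the levels of tumor-like nuclei was not tested. A tumor is the replicate throughout, and nuclei are not. Levels are in CPM, the UMIs of a gene scaled to the summed UMIs of the same nuclei of a tumor, and they are compared for 1 gene across nuclei, never between genes.

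The members were sorted by the class in which the mean CPM of each was highest. Cd274, Cd47, Sirpa, Cd200r1 and Havcr2 were highest in macrophage-like nuclei. Cd276, Cd200 and Lgals9 were highest in endothelial-like nuclei, and Pvr in myocyte-like nuclei. For Cd274, Cd47 and Pvr the lead over the next class held in 5 of 8 tumors only. None of these 9 genes was highest in tumor-like nuclei, and Pdcd1lg2 gave too few UMIs to be placed. These leading classes were the same for the 9 genes under each of the 4 other ways of clustering, naming and filtering that were tried.

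Sirpa, the CD47 receptor, averaged 517 ± 111 CPM in macrophage-like nuclei (SD, n = 8 tumors) and 327 ± 103 in osteoclast-like nuclei. It was higher in macrophage-like nuclei in 7 of 8 tumors, and no other class averaged above the 69.8 ± 7.79 CPM of fibroblast-like nuclei. Tumor-like nuclei held 62.4 ± 16.5 CPM, which was above endothelial-like nuclei (58.9 ± 16.9) in 6 of 8 tumors. Sirpa was thus highest in the myeloid classes and was counted in every other class.

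Havcr2 was more restricted to the myeloid classes. It averaged 85.6 ± 30.8 CPM in macrophage-like nuclei and 23.7 ± 12.1 in osteoclast-like nuclei, in that order in 8 of 8 tumors. The other 5 classes averaged between 2.32 and 4.04 CPM, and their neighbors in the order did not differ beyond their spread. Cd200r1 had the same shape, with 82.3 ± 42.0 CPM in macrophage-like nuclei and 11.2 ± 6.06 in osteoclast-like nuclei, again in that order in 8 of 8 tumors. Its lowest class, the endothelial-like nuclei, held 1.11 ± 0.895 CPM.

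Cd274 was shared by the myeloid classes. It averaged 37.8 ± 19.2 CPM in macrophage-like nuclei and 30.2 ± 29.5 in osteoclast-like nuclei, and the first was above the second in 5 of 8 tumors only. Tumor-like nuclei held the lowest mean of the 7 classes, 2.04 ± 1.03 CPM, against 2.18 ± 2.46 in myocyte-like nuclei and 3.93 ± 3.26 in endothelial-like nuclei. These lower classes did not separate beyond their spread. The second PD-1 ligand, Pdcd1lg2, gave 155 UMIs in all retained nuclei and 12 in macrophage-like nuclei, too few to rank its classes.

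**Figure D1:**
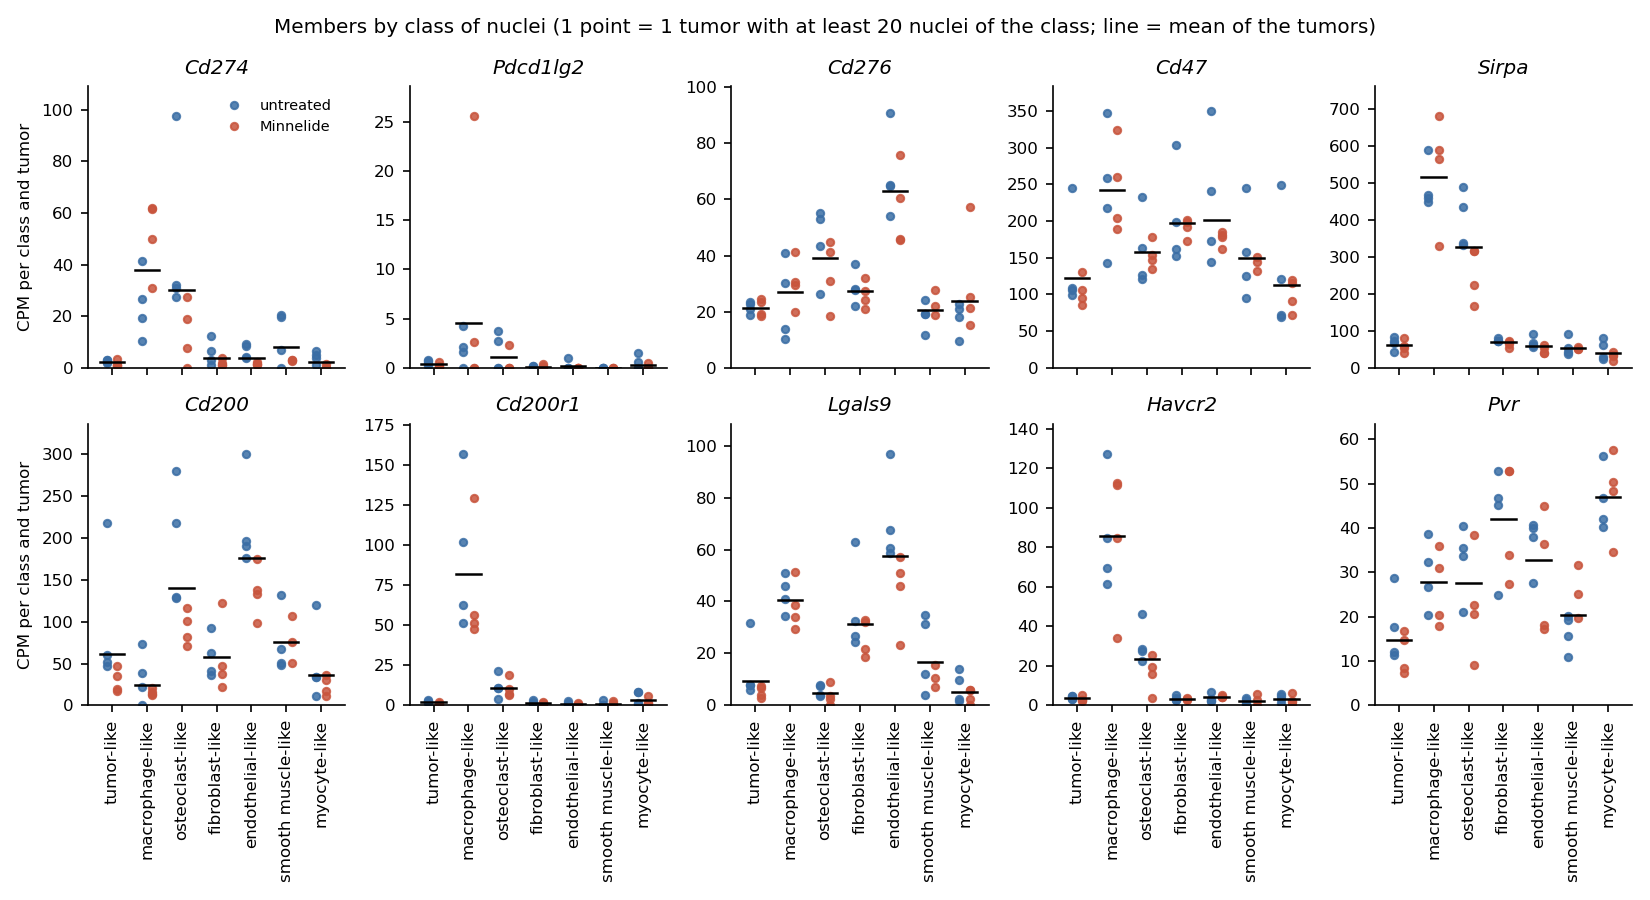
Level of each of the 10 genes in 7 nuclear classes (CPM of summed UMIs on the vertical axis, 1 panel per gene, each with its own scale). Each point is 1 tumor, untreated or Minnelide by color, and the line is the mean over tumors; Sirpa, Havcr2 and Cd200r1 stand highest in macrophage-like nuclei, and Cd276, Cd200 and Lgals9 in endothelial-like nuclei.

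Cd276 averaged 62.9 ± 15.3 CPM in endothelial-like nuclei and 39.1 ± 13.0 in osteoclast-like nuclei, higher in the first in 8 of 8 tumors. The remaining classes lay between 20.4 and 27.4 CPM, with tumor-like nuclei at 21.4 ± 2.42. Cd200 averaged 176 ± 60.2 CPM in endothelial-like nuclei and 141 ± 71.8 in osteoclast-like nuclei (higher in 6 of 8 tumors). It was lowest in macrophage-like nuclei, at 24.6 ± 22.4 CPM. Macrophage-like nuclei were thus the lowest class for the ligand Cd200 and the highest for its receptor Cd200r1.

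Lgals9 averaged 57.7 ± 20.7 CPM in endothelial-like nuclei and 40.7 ± 8.12 in macrophage-like nuclei, higher in the first in 7 of 8 tumors. It was lowest in osteoclast-like nuclei, at 4.79 ± 3.07 CPM, where Cd274 and Sirpa were high. Cd47 was broad, from 113 ± 59.0 CPM in myocyte-like nuclei to 243 ± 68.7 in macrophage-like nuclei, and macrophage-like nuclei exceeded endothelial-like nuclei (202 ± 66.0) in 5 of 8 tumors only. Pvr ranged from 14.7 ± 6.74 CPM in tumor-like nuclei to 47.0 ± 7.89 in myocyte-like nuclei, with fibroblast-like nuclei next at 42.1 ± 11.7 (5 of 8 tumors).

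The share of nuclei with a UMI was also higher in macrophage-like than in tumor-like nuclei for Cd274, Havcr2 and Sirpa. It did not follow the CPM order throughout. Cd274 was seen in 6.70% of macrophage-like nuclei (mean over tumors) against 0.689% of tumor-like nuclei, at median depths of 2055 and 2871 UMIs. Thinned to 1000 UMIs per nucleus, which left out 8533 shallower nuclei, these were 3.11% and 0.190%. Cd200r1 was seen in 13.6% of macrophage-like nuclei and 0.385% of endothelial-like nuclei, its lowest class by CPM, or 6.01% and 0.164% after thinning. Havcr2 was seen in 15.8% of macrophage-like and 1.32% of tumor-like nuclei, or 8.06% and 0.334% after thinning, and Sirpa in 57.9% and 18.4%, or 37.5% and 6.11%. Osteoclast-like nuclei, at a median depth of 3548 UMIs, went against the CPM order for some genes. Cd274 was seen in 10.3% of them, or 3.67% after thinning, both above macrophage-like nuclei. Unthinned, Sirpa (61.4%) and Cd47 (46.1%, against 39.4% of macrophage-like nuclei) were above them too. After thinning both were lower in osteoclast-like nuclei, at 26.8% for Sirpa and 15.0% against 20.3% for Cd47. The thinned Cd200r1 share of tumor-like nuclei, 0.168%, was about that of endothelial-like nuclei. How much of the Sirpa signal, and of the low Cd274, Cd200r1 and Havcr2 signal, outside the myeloid classes is free RNA was not tested. The summed level of the 8 tumor markers was 3069 to 10890 CPM in macrophage-like nuclei, against 13830 to 20490 CPM in tumor-like nuclei, and the part of such RNA in the class levels was not tested.

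Few nuclei carried much of the signal. Macrophage-like nuclei held 1.5% of all UMIs but 28.3% of the Cd200r1 UMIs, 20.2% of Havcr2, 12.6% of Cd274 and 10.4% of Sirpa. The unnamed nuclei held 12.4% of all UMIs and 39.2% of Cd200r1, 30.9% of Havcr2 and 32.8% of Cd274 UMIs. The single cluster from untreated tumor 1 supplied most of these, with 466 UMIs of Cd200r1 (17.2 CPM), 411 of Havcr2 (15.2 CPM) and 341 of Cd274 (12.6 CPM). It also held Cd200 at 183 CPM.

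Genes whose pattern was most like each member over 53 sums of class and tumor (Pearson's r of log2(CPM + 10), 9730 genes, as a description, since sums of 1 tumor share a library) were leukocyte genes for the receptors. For Sirpa these were Myo1f (r = 0.962), Nckap1l (0.955) and Ptprc (0.954), for Havcr2 Vav1 (0.968), Ms4a14 (0.967) and Myo1f (0.949), and for Cd200r1 Fgr (0.951), Hpgds (0.947) and Ikzf1 (0.942). Cd274 was near to Pirb (0.887) and Gpr132 (0.874). Lgals9 was nearest to Ddx58 (0.883), the RNA sensor RIG-I, then App (0.871) and Man1a (0.857), and Cd47 to Clic1 (0.866), Cmtm3 (0.847) and Zfp36l2 (0.842). The likeness was looser for Cd200 (Myo10, 0.790, Ablim1, 0.787, and Plcb4, 0.780), Cd276 (Inhbb, 0.777, Btnl9, 0.766, and Vash1, 0.763), Pvr (Tnfrsf23, 0.723, Dst, 0.708, and Ppp3ca, 0.696) and Pdcd1lg2 (Ifnlr1, 0.677, Kynu, 0.657, and Abcg3, 0.626).

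Among the members themselves, Sirpa and Havcr2 (r = 0.926), Cd200r1 and Havcr2 (0.916) and Cd274 and Sirpa (0.837) went together over the same sums. The ligand and receptor of each pair were less alike: Cd47 and Sirpa gave 0.457, Lgals9 and Havcr2 gave 0.224 and Cd200 and Cd200r1 gave -0.341.

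The effect of treatment was first read in the UMIs of all retained nuclei, where fewer cells of a type and less RNA per cell cannot be told apart. PD-L1, CD200R1 and TIM-3 transcripts were lower in every Minnelide tumor than in any untreated tumor. Cd274 stood at 10.99, 5.998, 3.70 and 3.44 CPM in untreated tumors 1 to 4 and at 1.65, 2.88, 1.82 and 1.72 CPM in Minnelide tumors 1 to 4. Cd200r1 stood at 15.2, 4.43, 3.10 and 3.76 CPM and at 2.48, 2.26, 2.08 and 1.49 CPM. Havcr2 stood at 11.7, 7.81, 6.92 and 5.13 CPM and at 4.23, 3.29, 4.45 and 4.19 CPM. The groups did not overlap for these 3 of 9 tested members, and untreated tumor 1 was the highest for each. Every Minnelide tumor was below every untreated tumor for 7.01% of the 13817 genes tested.

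By edgeR's quasi-likelihood test, the log2 fold change of Cd274 was -1.39 ± 0.40 (SE, adjusted p = 0.462), that of Cd200r1 was -1.46 ± 0.49 (adjusted p = 0.462) and that of Havcr2 was -0.80 ± 0.25 (adjusted p = 0.462). No gene passed the adjusted threshold of 0.05 in this comparison, so none of these differences is called. At an unadjusted p under 0.05, 1043 genes were lower (7.55%) and 336 higher (2.43%) by edgeR, and DESeq2 called 184 genes, no member among them, with its lowest adjusted p for Cd274 at 0.0576. Without untreated tumor 1, the edgeR values were -1.02 for Cd274, -0.75 for Cd200r1 and -0.62 for Havcr2, each still at an unadjusted p under 0.05.

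The marker sums of leukocyte types overlapped between the groups. Their medians were lower in Minnelide tumors for macrophage, osteoclast, T and NK cell and B cell markers. The median of 8 dendritic cell markers went the other way, with 97.1 CPM in untreated and 105 CPM in Minnelide tumors. That of 7 B cell markers was 7.11 and 4.53 CPM. The sum of 11 macrophage markers ranged from 228 to 803 CPM in untreated and from 206 to 301 CPM in Minnelide tumors, with untreated tumor 1 highest, and no marker was at 0 in any tumor. The sum of 10 osteoclast markers ranged from 545 to 1993 CPM in untreated (median 823) and from 374 to 787 CPM in Minnelide tumors (median 429), again with none at 0. The sum of 12 T and NK cell markers ranged from 46.5 to 153 CPM (median 71.6) and from 23.5 to 74.9 CPM (median 35.9), with up to 1 marker at 0 in an untreated and up to 4 in a Minnelide tumor. Macrophage-like nuclei made up 0.637% to 4.98% of untreated and 1.57% to 2.73% of Minnelide nuclei. The part of these sums and shares in the result was not tested. Plgrkt, the gene that overlaps Cd274, ranged from 17.0 to 49.1 CPM in untreated and from 13.3 to 21.1 CPM in Minnelide tumors.

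**Figure D2:**
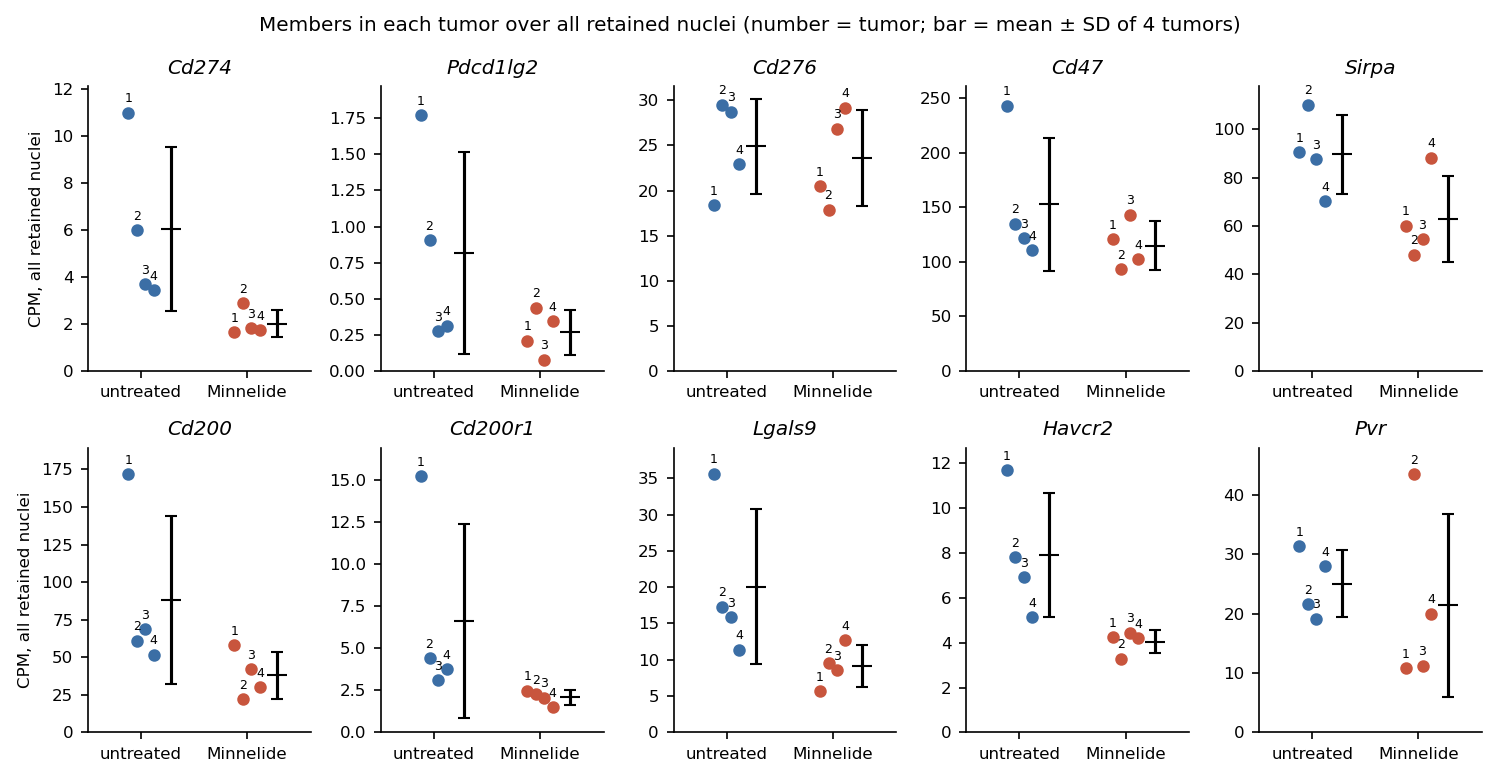
CPM of each of the 10 genes in all retained nuclei of each tumor (vertical axis, 1 panel per gene, each with its own scale; points are numbered tumors, bars are the mean ± SD of 4 tumors). The groups are apart for Cd274, Cd200r1 and Havcr2, and untreated tumor 1 is highest for 7 of the 10 genes.

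For Cd200 and Lgals9 the Minnelide values were lower but overlapped the untreated ones. Cd200 stood at 172, 61.0, 68.5 and 51.7 CPM in the untreated and 58.2, 22.3, 41.9 and 30.1 CPM in the Minnelide tumors. Lgals9 stood at 35.6, 17.3, 15.9 and 11.4 CPM and at 5.64, 9.53, 8.55 and 12.7 CPM. In each case 1 Minnelide tumor reached the lower end of the untreated range. The edgeR log2 fold changes were -1.02 ± 0.40 for Cd200 (adjusted p = 0.482) and -0.95 ± 0.36 for Lgals9 (adjusted p = 0.472). Without untreated tumor 1 they were -0.58 and -0.62, with an unadjusted p over 0.05.

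The CD47 axis differed less. Sirpa stood at 90.6, 110, 87.7 and 70.3 CPM in the untreated and 60.2, 48.2, 54.6 and 88.4 CPM in the Minnelide tumors (log2 fold change -0.37 ± 0.22, adjusted p = 0.593). Cd47 stood at 243, 135, 122 and 111 CPM and at 121, 93.1, 143 and 103 CPM (-0.23 ± 0.23, adjusted p = 0.729). Both overlapped between groups, and untreated tumor 1 alone lay well above the rest for Cd47.

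Cd276 and Pvr had the smallest differences. Cd276 stood at 18.4, 29.5, 28.7 and 22.9 CPM in the untreated and 20.5, 17.9, 26.9 and 29.2 CPM in the Minnelide tumors (log2 fold change 0.06 ± 0.25, adjusted p = 0.948). Pvr stood at 31.4, 21.6, 19.2 and 28.1 CPM and at 10.8, 43.5, 11.2 and 20.04 CPM (-0.06 ± 0.45, adjusted p = 0.970), and its highest and lowest tumor were both in the Minnelide group. Without Minnelide tumor 2, its highest, Pvr gave -0.68 ± 0.28 (edgeR adjusted p = 0.263), at an unadjusted p under 0.05. The small difference of Pvr thus rests on that tumor. Myocyte-like nuclei, the class highest for Pvr, made up 49.1% of its nuclei, 38.3% of those of untreated tumor 1 and 0.775% to 7.21% in the others. The part of this makeup in the result was not tested. Pdcd1lg2, at 0.275 to 1.77 CPM in the untreated and 0.0790 to 0.438 CPM in the Minnelide tumors, did not pass the filter on low counts and was not tested. Of the 9 members tested, 8 were lower in Minnelide tumors, beside 49.3% of all genes. By edgeR, 5 of them were at an unadjusted p under 0.05, beside 7.55% of all genes. The median log2 fold change of the 9 members was -0.80, beside 0.01 over all genes.

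**Figure D3:**
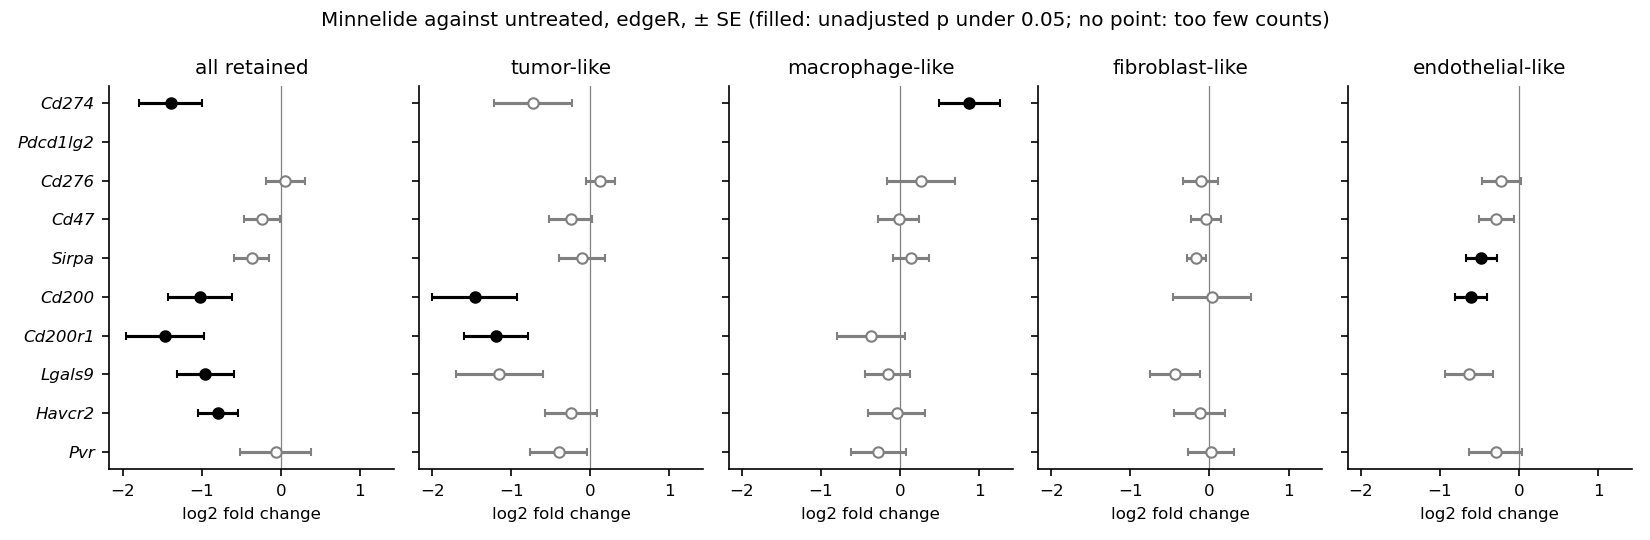
edgeR log2 fold change (Minnelide over untreated) ± SE of each gene tested in all retained nuclei and in 4 classes (horizontal axis; filled points have an unadjusted p under 0.05, and none has an adjusted p under 0.05). Most points lie below 0 in all nuclei and in tumor-like nuclei, and Cd274 lies above 0 in macrophage-like nuclei.

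In tumor-like nuclei alone, Cd200 and Cd200r1 had the largest fold changes of the 9 members tested, both lower in Minnelide tumors. Cd200 stood at 218, 51.7, 60.0 and 46.5 CPM in the untreated and 47.2, 16.8, 35.3 and 19.5 CPM in the Minnelide tumors, which overlapped by 1 Minnelide tumor. Cd200r1 stood at 2.95, 2.39, 1.68 and 3.66 CPM and at 1.11, 1.84, 0.913 and 0.561 CPM, which also overlapped by 1 tumor. The edgeR log2 fold changes were -1.46 ± 0.54 for Cd200 (adjusted p = 0.457) and -1.19 ± 0.41 for Cd200r1 (adjusted p = 0.457). These were 2 of 9 members tested, both at an unadjusted p under 0.05, beside 7.85% of genes lower and 2.64% higher in this class. No gene passed the adjusted threshold here by edgeR, against 118 by DESeq2, no member among them.

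Without untreated tumor 1, Cd200 gave -0.72 with an unadjusted p over 0.05, and with doublets kept, Cd200r1 gave -2.17. The Cd200r1 share of this class was about that of endothelial-like nuclei, and whether it is free RNA was not tested. The macrophage marker sum in tumor-like nuclei was 202 to 514 CPM in untreated and 189 to 272 CPM in Minnelide tumors. The osteoclast marker sum was 402 to 1604 CPM and 312 to 604 CPM, with no marker at 0, and the T and NK cell sum was 58.5 to 89.9 CPM and 23.9 to 77.9 CPM, with up to 5 of 12 markers at 0 in a Minnelide tumor. The median T and NK cell sum was 70.8 CPM in untreated and 43.2 CPM in Minnelide tumors, against 71.6 and 35.9 CPM over all nuclei. Itgb3, on the osteoclast list, alone stood at 65.9 to 281 CPM in tumor-like nuclei. Whether these sums are leukocyte RNA, and their part in the result, was not tested. Cd274 was at 1.83 to 3.09 CPM in the untreated and 0.631 to 3.27 CPM in the Minnelide tumors (log2 fold change -0.72 ± 0.49, adjusted p = 0.586). Lgals9 gave -1.15 ± 0.55 (adjusted p = 0.4905) with untreated tumor 1 at 31.6 CPM and the other 7 tumors between 3.04 and 7.94. In no member did the groups stand apart in tumor-like nuclei, beside 7.04% of genes lower in every Minnelide tumor.

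Cd274 took the other direction in macrophage-like nuclei. It stood at 26.6, 41.5, 19.4 and 10.2 CPM in the untreated and 49.96, 62.1, 30.8 and 61.5 CPM in the Minnelide tumors. Minnelide tumor 3 fell inside the untreated range and the other 3 were above it. The counts are small: 72 UMIs in the untreated tumors, of which 1 in untreated tumor 4, and 68 in the Minnelide tumors. The edgeR log2 fold change was 0.88 ± 0.39 (adjusted p = 0.9998). It was the 1 of 8 members tested at an unadjusted p under 0.05, beside 1.42% of genes higher and 1.45% lower. It stayed above 0 under every alternative (0.45 to 1.24), but its p was under 0.05 on leaving out only 2 of the 8 tumors in turn. Neither edgeR nor DESeq2 called any gene in macrophage-like nuclei.

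The clusters behind this class differed in Cd274 and in the tumors that filled them. Over the 9 macrophage-like clusters the level ran from 2.02 to 75.9 CPM. A pair of clusters came almost wholly from untreated tumor 1 (98.8% and 99.4% of nuclei), at 47.8 and 13.0 CPM, and another mainly from Minnelide tumor 2 (88.7%), at 44.7 CPM. Leukocyte clusters left unnamed included 193 nuclei mainly from Minnelide tumor 1 (92.7%), at 6.66 CPM, and 145 mainly from Minnelide tumor 3 (97.9%), at 2.28 CPM. With mixed clusters kept in the class, a choice made after seeing the data, the log2 fold change of Cd274 was 0.45 ± 0.61 (edgeR adjusted p = 0.876), so its size depends on which clusters are counted as macrophage-like.

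The receptors did not separate in macrophage-like nuclei. Sirpa stood at 469, 461, 591 and 449 CPM in the untreated and 565, 330, 683 and 589 CPM in the Minnelide tumors (0.14 ± 0.23, adjusted p = 0.9998). Havcr2 stood at 69.3, 84.5, 127 and 61.3 CPM and at 111, 33.9, 84.8 and 113 CPM (-0.04 ± 0.37, adjusted p = 0.9998). Cd200r1 stood at 157, 51.6, 62.5 and 102 CPM and at 129, 48.0, 56.5 and 51.2 CPM (-0.36 ± 0.43, adjusted p = 0.9998). The overlap of groups was wide for all 3, and no member was lower in every Minnelide tumor (1.05% of genes were), so the gap that Havcr2 and Cd200r1 showed over all nuclei was not seen within this class.

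Whether the effect differs between macrophage-like and tumor-like nuclei was tested as an interaction, with the tumor as a block. The effect on Cd274 was higher in macrophage-like nuclei by 1.71 ± 0.56 on the log2 scale (edgeR, adjusted p = 0.454), and its unadjusted p stayed under 0.05 on leaving out each of the 8 tumors in turn (1.40 to 2.07). Lgals9 gave 1.11 ± 0.49 and Cd200r1 1.003 ± 0.45 (adjusted p = 0.634 for both). These were 3 of 9 members tested with an unadjusted p under 0.05, beside 6.06% of 12103 genes with a higher and 1.36% with a lower effect in macrophage-like nuclei. No gene passed the adjusted threshold by edgeR, and DESeq2 passed 8, no member among them. The tumor-like side of this comparison rests on low levels, with Cd200r1 at a mean of 1.89 CPM there and Cd274 at a mean of 2.04 CPM. The part of free RNA in the difference was not tested.

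Cd274, Sirpa and Cd200 were lower in the osteoclast-like nuclei of every Minnelide tumor. With 41 to 222 nuclei per tumor, this class was described without a test. Cd274 stood at 97.5, 31.1, 27.6 and 31.9 CPM in the untreated and 27.4, 0, 18.8 and 7.71 CPM in the Minnelide tumors, the 0 being a count of 0 UMIs, which allows up to 19.2 CPM. Sirpa stood at 435, 490, 332 and 337 CPM and at 167, 225, 315 and 316 CPM. Cd200 stood at 218, 128, 130 and 280 CPM and at 82.3, 70.6, 116 and 100 CPM. For these 3 of the 7 members with at least 50 UMIs in the class, every Minnelide tumor was below every untreated tumor, beside 3.91% of 8181 genes. For Cd274 and Sirpa the gap between the nearest tumors was narrow.

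In endothelial-like nuclei, Cd200, which is highest in this class, was lower in each Minnelide tumor. It stood at 301, 176.3, 196 and 191 CPM in the untreated and 175.5, 133, 98.9 and 138 CPM in the Minnelide tumors (log2 fold change -0.61 ± 0.20, edgeR adjusted p = 0.530). Lgals9 stood at 60.7, 96.8, 58.7 and 67.6 CPM and at 23.4, 51.0, 46.2 and 57.0 CPM (-0.63 ± 0.30, adjusted p = 0.566). The groups were apart for these 2 of 6 members tested, beside 3.36% of genes, though Cd200 in untreated tumor 2 and Minnelide tumor 1 differed by little. Sirpa gave -0.48 ± 0.19 (adjusted p = 0.551) with overlapping groups. Cd200 and Sirpa were the 2 members at an unadjusted p under 0.05, beside 5.02% of genes lower and 3.99% higher, and no gene passed the adjusted threshold by edgeR, against 22 by DESeq2, no member among them. Cd274, not tested for its 41 UMIs, was at 3.82 to 9.17 CPM in the untreated and 0.864 to 2.08 CPM in the Minnelide tumors.

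Fibroblast-like nuclei gave 0 of 7 members at an unadjusted p under 0.05, beside 3.01% of genes lower and 2.37% higher. Sirpa stood just apart, at 72.1 to 80.6 CPM in the untreated and 54.2 to 72.1 CPM in the Minnelide tumors (-0.17 ± 0.12, adjusted p = 0.904), 1 of 7 members beside 2.54% of genes. By edgeR no gene passed the adjusted threshold, against 17 by DESeq2, no member among them.

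The file names call Minnelide tumors 1 and 2 responder and tumors 3 and 4 nonresponder, words that the labels do not carry, so values are given with no test. Cd276 was apart in each set of nuclei examined: it was 17.9 and 20.5 CPM in the tumors named responder and 26.9 and 29.2 CPM in those named nonresponder in all nuclei, 18.4 and 19.2 against 23.5 and 24.5 CPM in tumor-like nuclei, and lower in macrophage-like nuclei too. Cd200r1 had the opposite order, with 2.26 and 2.48 against 1.49 and 2.08 CPM in all nuclei. The other 8 members overlapped in all nuclei. Pdcd1lg2, with few UMIs, was higher in the tumors named responder in tumor-like nuclei and lower in macrophage-like nuclei. In macrophage-like nuclei Sirpa and Lgals9 were also lower in the tumors named responder, at 330 and 565 against 589 and 683 CPM for Sirpa and 29.5 and 33.9 against 38.5 and 51.2 CPM for Lgals9. Pairs of tumors stand apart often. Among genes of at least 50 UMIs, 30.3% were apart in one direction or the other in all nuclei, 27.1% in tumor-like and 32.5% in macrophage-like nuclei, beside 2 of 9, 2 of 9 and 2 of 6 members, which is near that background.

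The partner genes of these checkpoints were taken as 75 genes in 7 lists. Over all retained nuclei 62 passed the filter, none was called by edgeR, and 15 were lower and 0 higher in Minnelide tumors at an unadjusted p under 0.05, with a median log2 fold change of -0.33. Of all genes, 7.55% were lower and 2.43% higher at that threshold, and 49.3% had a fold change below 0. Interferon gamma signaling, the known input to Cd274, gave 7 of 8 tested genes lower. The transcription factor Irf1 (-0.83 ± 0.31, adjusted p = 0.472) and the receptor subunit Ifngr1 (-1.37 ± 0.60, adjusted p = 0.4996) were at an unadjusted p under 0.05. Both were so in tumor-like nuclei too, with -0.91 and -1.71, and neither was in macrophage-like nuclei, with -0.30 and -0.49. The difference between these classes reached an unadjusted p under 0.05 for Ifngr1 (0.93 ± 0.36, adjusted p = 0.567) and not for Irf1.

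Itgam and Cd96, both leukocyte genes, had the smallest p of the partners that were lower. Itgam, which encodes the CD11b integrin chain of myeloid cells, stood at 21.2, 14.0, 9.28 and 10.0 CPM in the untreated and 5.54, 6.43, 6.53 and 6.03 CPM in the Minnelide tumors (log2 fold change -0.98 ± 0.25, edgeR adjusted p = 0.462). Cd96, a receptor of Pvr, stood at 3.21, 0.857, 0.432 and 0.563 CPM and at 0.0641, 0.110, 0.237 and 0.230 CPM (-2.83 ± 0.75, adjusted p = 0.462). The groups were apart for both. They were the 2 partners that DESeq2 called over all nuclei, with adjusted p = 0.0251 for Itgam and 0.0479 for Cd96. The counts of Cd96 were small, at 221 UMIs over all tumors, with untreated tumor 1 far above the rest. Of these UMIs, 2 were in T or NK-like and 3 in macrophage-like nuclei, so its call was not traced to leukocytes here. The genes with the smallest p among those higher were Dok2, an adaptor of Cd200r1 (0.44 ± 0.23, adjusted p = 0.5505), and Qpctl, the enzyme that modifies CD47 for SIRPA binding (0.37 ± 0.24, adjusted p = 0.617).

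In tumor-like nuclei 8 of 50 tested partners were lower and 0 higher at an unadjusted p under 0.05, beside 7.85% and 2.64% of genes, and neither edgeR nor DESeq2 called any of them. Tgfb1, the immunosuppressive cytokine, stood at 75.3, 67.1, 62.7 and 65.5 CPM in the untreated and 52.0, 38.4, 39.8 and 47.1 CPM in the Minnelide tumors (-0.47 ± 0.13, adjusted p = 0.457). Adora2a, an adenosine receptor, gave -1.80 ± 0.52 (adjusted p = 0.457), with untreated tumor 1 at 51.1 CPM and the other untreated tumors at 9.57 to 15.6, above the 3.68 to 7.31 CPM of the Minnelide tumors. The groups were apart for both genes. The integrin chains Itgav (0.41 ± 0.32, adjusted p = 0.625) and Itgb3 (0.45 ± 0.42, adjusted p = 0.688) came first among those higher.

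In macrophage-like nuclei 1 of 33 tested partners was higher and 0 lower at an unadjusted p under 0.05, beside 1.42% and 1.45% of genes, with none called by either tool. That gene was Thbs1, the secreted CD47 ligand thrombospondin-1, at 141, 68.7, 88.4 and 40.8 CPM in the untreated and 318, 90.3, 252 and 97.3 CPM in the Minnelide tumors (1.07 ± 0.43, edgeR adjusted p = 0.9998), with overlapping groups. Jak2, a kinase of the interferon gamma receptor, gave 0.31 ± 0.24. Lgals8, which encodes galectin-8, gave -0.65 ± 0.32 and Itgam -0.56 ± 0.30, none of these 3 at an unadjusted p under 0.05.

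The lymphocyte side of these checkpoints was scarcely measured. Only 63 T or NK-like nuclei were found, 2 to 28 per tumor. Pdcd1, the receptor of Cd274, had 85 UMIs in all retained nuclei, of which 6 were in T or NK-like nuclei. Tigit had 61 UMIs and Cd96 221, with 0 and 2 in T or NK-like nuclei. Differences in these receptors within lymphocytes were not detectable at this depth.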

How the data were processed

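Nuclei of 4 untreated and 4 Minnelide-treated tumors were profiled with the 10x Chromium 3' kit. For each nucleus, the authors deposited UMI counts by gene, not normalized, from bcl2fastq 2.20 and Cell Ranger (7.0.1 by the submitters' processing notes, 9.0.1 by the file headers) on mm39, with intronic reads included. Each matrix was taken as 1 tumor. Nothing in the labels says whether the tumors came from separate mice, so p-values measure only the spread between these tumors. Totals ran from 18487409 to 73211599 UMIs.

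Nuclei were kept with at least 200 genes and a mixture-model posterior of 0.75 for mitochondrial share, and doublets were removed with Scrublet in scanpy 1.11.5 (0.8% per 1000 nuclei). Clusters came from 2000 variable genes without members, partners or markers, 30 components, 40 neighbors and Leiden clustering (resolution 1.0) with igraph 0.11.9, leukocyte clusters being clustered again. A cluster was named where at least 3 markers were raised 1.5-fold and its leading genes did not go against the name. Classes rebuilt this way may differ from those of the study. Class levels needed 20 nuclei. The macrophage list had 12 markers, 1 of which (Cx3cr1) was not among the features used here.

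UMIs were summed per tumor and class and tested with edgeR 4.0.16 (quasi-likelihood, TMM, filterByExpr, Benjamini-Hochberg over all genes tested), with DESeq2 1.42.0 as an alternative. The edgeR fits were also run on simulated counts with known changes. The share recovered is not given here, so a lack of calls does not show a lack of effect. Named genes were the 10 members, the 2 partners with the smallest p in each direction in all, tumor-like and macrophage-like nuclei, and the 3 genes most like each member, leaving out items that are not reported here; Irf1 and Ifngr1 were named after their values were seen. The members and lists were chosen with earlier results of these data known. Levels of 0 counts allow up to 3 UMIs, for counting error only.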

Additional observations from a re-analysis of the deposited data

Results flagged for a closer look

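Within groups of 4 tumors and at least 20 UMIs, the highest or lowest tumor stood far from the other 3 (gap over range above Dixon's critical value) in 12 of 103 cases, where chance gives about 1 in 20. Untreated tumor 1 was the distant tumor in 8 of the 12.

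Cd200 was the gene most often involved. Untreated tumor 1 stood at 172 CPM in all nuclei (other untreated tumors 51.7 to 68.5), 218 CPM in tumor-like nuclei (46.5 to 60.0) and 301 CPM in endothelial-like nuclei (176 to 196). The same tumor was high for Cd200r1 in all nuclei, at 15.2 CPM (3.10 to 4.43), for Lgals9 in tumor-like nuclei, at 31.6 CPM (6.09 to 7.94), for Cd47 in tumor-like nuclei, at 245 CPM (98.5 to 108), for Cd274 in osteoclast-like nuclei, at 97.5 CPM (27.6 to 31.9), and, by a small margin, for Sirpa in fibroblast-like nuclei, at 80.6 CPM (72.1 to 73.4).

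The other 4 cases were single values. Cd274 in all nuclei was 2.88 CPM in Minnelide tumor 2 (other Minnelide tumors 1.65 to 1.82), Havcr2 in tumor-like nuclei was 5.11 CPM in the same tumor (2.25 to 2.71), Cd200r1 in macrophage-like nuclei was 129 CPM in Minnelide tumor 1 (48.0 to 56.5), and Sirpa in macrophage-like nuclei was 591 CPM in untreated tumor 3 (449 to 469). Their causes were not tested.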

How the results depend on the processing

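No member passed the adjusted threshold under any of 684 alternative values of 48 fold changes, and 641 kept their direction. edgeR called no gene in any main comparison. DESeq2 called 184 genes in all nuclei, 118 in tumor-like, 17 in fibroblast-like, 22 in endothelial-like and 8 for the interaction of class and treatment. Leaving out each tumor in turn gave 0 to 1 genes in all nuclei, 0 to 1 in endothelial-like nuclei and 0 to 9 for the interaction. With mixed clusters kept, a choice made after seeing the data, the interaction gave 6. The causes were not tested.

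Directions turned for 20 results. Without a tumor in turn, log2 fold changes ran in all nuclei from -0.68 to 0.17 for Pvr, -0.11 to 0.16 for Cd276 and -0.36 to 0.00073 for Cd47, and in tumor-like nuclei from -0.30 to 0.0441 for Sirpa and -0.38 to 0.10 for Cd47. In macrophage-like nuclei they ran from -0.16 to 0.20 for Cd47, -0.19 to 0.22 for Havcr2, -0.82 to 0.18 for Cd200r1 and -0.0541 to 0.60 for Cd276. In fibroblast-like nuclei they ran from -0.66 to 0.33 for Cd200, -0.25 to 0.0376 for Cd276, -0.13 to 0.17 for Cd47, -0.21 to 0.0672 for Havcr2 and -0.16 to 0.18 for Pvr. For the interaction they ran from -0.20 to 0.56 for Cd200, -0.0617 to 0.52 for Cd276, -0.36 to 0.58 for Pvr and -0.0397 to 0.41 for Sirpa. Other settings turned Cd47 (0.19) and Pvr (0.14) in tumor-like nuclei where clusters with a second class stayed unnamed, Cd47 in macrophage-like nuclei (0.0761) and Cd276 (0.0339), Cd47 (0.027) and Havcr2 (0.24) in fibroblast-like nuclei at resolution 2.0, Cd200 (-0.031) and Pvr (-0.00159) in fibroblast-like nuclei with doublets kept, and Sirpa in macrophage-like nuclei (-0.23) with mixed clusters kept.

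Of 40 class levels under other settings, 39 moved by less than 1 SD, and Cd274 in macrophage-like nuclei moved to 57.8 CPM where clusters with a second class stayed unnamed. Depth limits Pdcd1lg2 (155 UMIs), Cd274 within classes and all receptors of lymphocytes. No paired analysis was possible because the labels number no tumors and the numbers used here only name them in file order.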

Other observations

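Icos, the T cell costimulatory receptor, was the exception among the 14 lymphocyte receptors on the partner lists, and it was picked out after its values were seen. It had 83365 UMIs in all retained nuclei, against 61 to 2195 for the other 13, and 99 of these were in T or NK-like nuclei. Its level in tumor-like nuclei was 41.9, 893, 342 and 141 CPM in untreated tumors 1 to 4 and 35.6, 751, 74.2 and 2620 CPM in Minnelide tumors 1 to 4. Minnelide tumor 4 was the highest and Minnelide tumor 1 the lowest, so the spread within each group exceeded any difference between them. Macrophage-like nuclei of the same tumors held 15.3, 640, 203 and 133 CPM and 25.0, 567, 71.9 and 1740 CPM, and endothelial-like nuclei 5.0, 346, 202 and 92.0 CPM and 29.2, 471, 43.6 and 1160 CPM. The level thus followed the tumor in classes that are not lymphocytes. Whether these UMIs are Icos transcripts was not tested.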
